A study of Mus musculus with 2 samples.

Results

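The genes followed here were 10 genes of macrophages that encode scavenger receptors, lectins and proteins found beside them, chosen by their symbols and all present among the 32285 genes measured. They were the scavenger receptors Cd163, Msr1 and Stab1, the mannose receptor Mrc1, the hyaluronan receptor Lyve1, the C-type lectins Cd209f and Cd209g, the soluble lectin Fcna, the complement receptor Vsig4 and the secreted protein Retnla. Their RNA was counted by single-nucleus RNA sequencing (snRNA-seq) of interscapular brown adipose tissue (BAT) of 8-week-old mice, in 1 library from WT mice (Srsf1 flox/flox) and 1 library from KO mice (Adipoq-Cre; Srsf1 flox/flox). Both groups carried the floxed Srsf1 alleles, and the KO group carried in addition a Cre recombinase driven by the adiponectin promoter, which is active in adipocytes. How many mice were pooled is not stated in the sources used here, and animals with Cre but no floxed allele were not analysed here.

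With 1 library per genotype there is no replicate error, so no test was made and no p-value is given, and a difference between genotypes is also a difference between 2 libraries. Intervals are 95% intervals (exact Poisson for counts, exact binomial or Clopper-Pearson for shares), and they cover counting error only. Each captured molecule carries a unique molecular identifier (UMI), and the WT and KO libraries held 93102814 and 80090208 UMIs in 12846 and 11495 barcodes, of which 12771 and 11378 were kept. The barcodes shared by both libraries numbered 52. The level of a gene in a set of nuclei is its UMIs per 1000000 UMIs of that set (CPM), and ratios are KO over WT on the log2 scale.

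Scavenger receptors and lectins let macrophages take up particles and molecules without antibody. Scavenger receptors bind modified lipoproteins, polyanions and cell debris, and C-type lectins bind sugars on glycoproteins and microbes. In adipose tissue, as in many organs, high levels of Mrc1, Cd163 and Lyve1 are known from macrophages that live in the tissue near its vessels. Retnla is known from macrophages exposed to interleukin 4 or interleukin 13, which signal through STAT6.

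Immune nuclei were those with at least 3 UMIs in sum of Dock2, Ptprc and Adgre1. These are genes of haematopoietic cells, the last of them that of the F4/80 antigen of macrophages. They made up 1112 of 12771 WT nuclei, or 8.71% (8.22% to 9.21%), and 5074 of 11378 KO nuclei, or 44.6% (43.7% to 45.5%). This class is a range on a sum of UMIs and not a cell type. Nuclei just outside it, with 2 UMIs of these genes, numbered 293 in WT and 790 in KO, and nuclei just inside it, with 3 UMIs, numbered 107 and 329. Immune markers that did not enter the gate, such as Csf1r and Lyz2, summed to 1552 CPM inside it and 234 CPM outside it in WT, and to 3398 and 401 CPM in KO. Nuclei with at least 2 UMIs of 8 macrophage markers (such as Csf1r, Mertk and Cd68, and none of them among the genes followed) were 76.0% of immune nuclei in WT and 76.2% in KO.

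RNA of other cell types was also found in the immune nuclei. Summed adipocyte and endothelial markers were higher in WT and summed markers of adipose stem and progenitor cells (ASPCs) in KO, with summed levels of 1809 and 1430 CPM, 816 and 266 CPM, and 316 and 724 CPM in WT and KO. Plin4, an adipocyte marker, went against its list, with 213 CPM in WT and 701 CPM in KO. The median immune nucleus held 3 UMIs of 5 adipocyte markers (Plin1, Cidec, Adipoq, Lipe and Plin4) in WT and 1 in KO, and 2 and 0 UMIs of 7 endothelial markers. At least 3 UMIs of the list of another class were present in 762 WT immune nuclei (68.5%) and 2132 KO immune nuclei (42.0%), and these nuclei were deeper, with a median of 10871 UMIs in WT and 9376.5 in KO. The other 350 WT and 2942 KO immune nuclei, called unmixed here, had medians of 3393.5 and 3836 UMIs. The word means few UMIs of the other lists and not that RNA of other classes was absent. In WT and KO unmixed nuclei, adipocyte markers summed to 248 and 137 CPM, endothelial markers to 168 and 56.8 CPM and ASPC markers to 121 and 124 CPM. The log2 ratio of the endothelial markers was -1.56 there, beside -1.62 over all immune nuclei, so the libraries still differed in this. Doublets were not called by a program, so the ratio of each of the 10 genes is given for all immune nuclei and for the unmixed ones, and the part of mixed nuclei in the ratios was not tested. The summed level of the 8 macrophage markers was 553 CPM in WT immune nuclei, with a log2 ratio of 0.73, and 1635 CPM in the WT unmixed ones, with a log2 ratio of -0.14.

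Srsf1, the gene deleted in adipocytes, had 186 CPM in WT and 60.9 CPM in KO adipocyte nuclei, a log2 ratio of -1.61 (-1.71 to -1.51). In immune nuclei its level was 143 and 65.5 CPM, and in unmixed immune nuclei 95.8 and 65.4 CPM, a log2 ratio of -0.55 (-0.82 to -0.27).

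Cd209f and Cd209g are neighbours on chromosome 8 of GRCm38, where Cd209f lies at chr8:4102787-4105835 on the minus strand and Cd209g at chr8:4134098-4137707 on the plus strand, with 28262 bases between them. RefSeq promoter sequences (GRCm38.p6) were found for 8 of the 10 genes, and 3 are shown. The first pair is shown because both lectins were lower in KO, and because their promoters share a long stretch of sequence. Capitals mark a run of 154 identical bases, 61.6% of the 250 bases before the start of transcription used for these promoter sequences. The run reaches that start in Cd209f and ends 15 bases before it in Cd209g. These starts are not the ends of the gene spans given here from GENCODE. The Cd209g window lies wholly inside its gene span, and the windows of Cd209f and Retnla overlap theirs.
Cd209f (chr8:4105765-4106014, minus strand): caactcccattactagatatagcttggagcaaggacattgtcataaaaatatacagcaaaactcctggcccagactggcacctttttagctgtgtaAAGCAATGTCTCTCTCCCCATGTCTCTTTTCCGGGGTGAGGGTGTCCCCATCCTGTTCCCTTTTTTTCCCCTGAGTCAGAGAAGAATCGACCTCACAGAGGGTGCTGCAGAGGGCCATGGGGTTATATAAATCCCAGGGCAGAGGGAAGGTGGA
Cd209g (chr8:4134486-4134735, plus strand): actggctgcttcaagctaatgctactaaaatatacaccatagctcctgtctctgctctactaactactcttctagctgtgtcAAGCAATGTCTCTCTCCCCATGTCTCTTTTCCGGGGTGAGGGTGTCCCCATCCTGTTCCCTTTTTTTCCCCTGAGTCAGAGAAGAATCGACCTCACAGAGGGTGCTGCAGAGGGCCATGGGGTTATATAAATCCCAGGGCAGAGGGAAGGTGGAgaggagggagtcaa
Among the 27 other pairs of these promoters the longest identical run was 7 to 12 bases. Promoters of Cd209a to Cd209e were not compared, so whether the long run is particular to this pair was not tested. The Retnla promoter is shown because Retnla had the largest ratio, and capitals mark TTC and GAA with 4 free bases between them, the form of site that STAT6 binds.
Retnla (chr16:48842359-48842608, plus strand): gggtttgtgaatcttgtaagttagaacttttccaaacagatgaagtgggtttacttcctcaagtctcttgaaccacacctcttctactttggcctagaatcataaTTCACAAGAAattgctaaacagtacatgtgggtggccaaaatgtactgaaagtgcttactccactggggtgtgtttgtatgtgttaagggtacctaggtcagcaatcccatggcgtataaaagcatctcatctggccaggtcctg
The match lies 145 to 136 bases before the start. It was searched on both strands, which are the same for this motif, and was held by 1 of the 8 promoters and by 5.85% of the 32851 promoters in the table. GAGGAA, the core of sites of the macrophage factor PU.1, was held on either strand by 5 of the 8 and by 23.3% of all. These matches are descriptions of sequence and were not tested for binding.

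Per UMI of all immune nuclei, Cd163, Cd209f, Cd209g and Vsig4 were lower in KO and the other 6 genes were higher. Past 2-fold, 3 of the 10 genes were lower (Cd209f, Cd209g and Vsig4), 1 was higher (Retnla) and 6 lay between, with a median log2 ratio of 0.65 over the 10 genes. Of 15889 genes with at least 50 UMIs in immune nuclei, 16.5% were lower and 13.5% higher by 2-fold, with a median log2 ratio of 0.06. In the unmixed nuclei Cd163 also passed 2-fold, so that 4 genes were lower and 1 higher, and the median over the 10 genes was -0.39. Of 11475 genes with at least 50 UMIs in unmixed nuclei, 11.5% were lower and 5.53% higher by 2-fold, with a median of -0.04.

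Counted per nucleus and not per UMI, a scale added after the data had been seen, fewer of the 10 genes were higher in KO. The mean immune nucleus held 14270 UMIs in WT and 8281 in KO. Mrc1 had 908 UMIs per 100 immune nuclei in WT and 869 in KO, a log2 ratio of -0.06 (-0.09 to -0.03), and Stab1 295 and 257, a log2 ratio of -0.20 (-0.25 to -0.14). The intervals of Msr1, with 97.7 and 94.5 UMIs per 100 nuclei, of Lyve1, with 25.4 and 25.2, and of Fcna, with 7.01 and 7.06, held 0. Retnla, with 3.15 and 28.2 UMIs per 100 nuclei, was the 1 gene higher past 2-fold, and Cd163, Cd209f, Cd209g and Vsig4 were lower past 2-fold. Per nucleus 37.1% of the 15889 genes were lower and 4.4% higher by 2-fold, with a median log2 ratio of -0.73, so the median of the 10 genes, -0.13, lay above it.

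On the CPM scale with no filter on nuclei, 1 gene was lower and 6 were higher past 2-fold, with Cd163 at -0.37 and Vsig4 at -0.98. The nuclei that passed the filter held 79395024 of the 93102814 WT UMIs and 73199531 of the 80090208 KO UMIs.

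**Figure D1:**
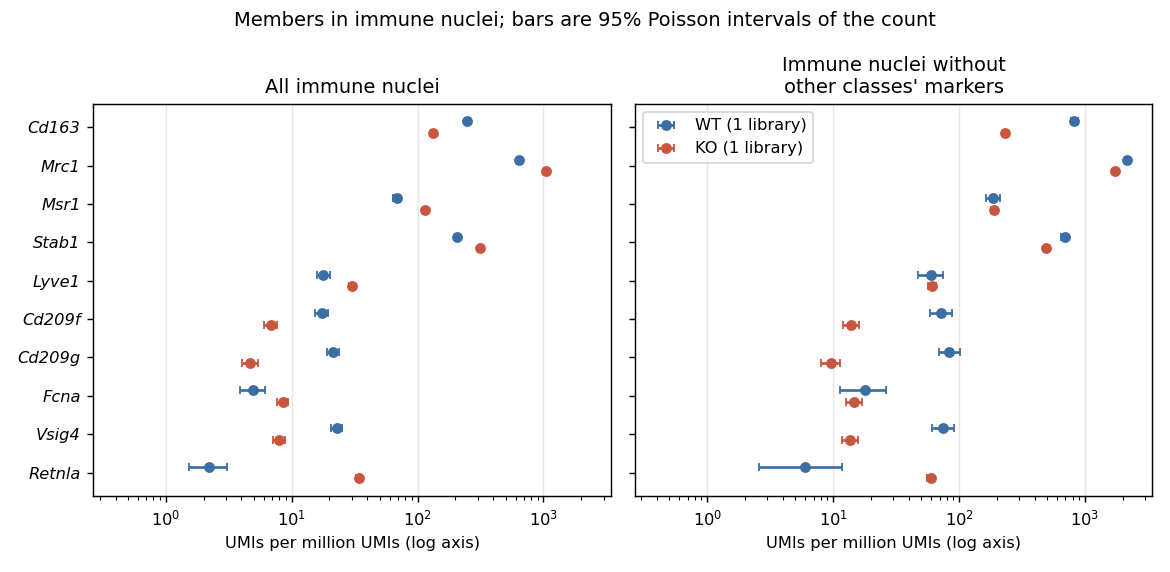
Level in CPM (log axis) of each gene in immune nuclei of the WT and KO libraries, for all immune nuclei (left) and for those without markers of other classes (right). Bars are 95% Poisson intervals of the count. Cd163, Cd209f, Cd209g and Vsig4 lie lower in KO in both panels and Retnla higher, while Mrc1 and Stab1 lie higher in KO on the left and lower on the right.

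Cd163 (ENSMUSG00000008845, chr6:124304656-124330527) encodes the receptor that takes up complexes of haemoglobin and haptoglobin. It had 3904 UMIs in WT immune nuclei, or 246 CPM (238 to 254), and 5598 in KO, or 133 CPM (130 to 137), with a log2 ratio of -0.88 (-0.94 to -0.83). In unmixed nuclei its level was 824 CPM in WT and 233 CPM in KO, a log2 ratio of -1.82 (-1.92 to -1.72). At least 1 Cd163 UMI was found in 549 WT immune nuclei (49.4%, 46.4% to 52.4%) and in 1102 KO immune nuclei (21.7%, 20.6% to 22.9%). With each nucleus thinned to 1000 UMIs, the share was 22.0% of 1086 WT nuclei and 9.86% of 4968 KO nuclei, with 26 and 106 shallower nuclei left out. Endothelial nuclei, which should lack the gene, gave 2.42% and 1.84% at the same depth, against unthinned medians of 2200.5 and 2079 UMIs there and 6586 and 5167.5 in immune nuclei. Thinned nuclei with any Cd163 UMI held 2.06 UMIs on average in WT and 1.80 in KO. Without thinning these means were 7.11 and 5.08. A positive nucleus holds at least 1 UMI, which limits how far the thinned means can differ, so share and amount were not ranked.

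Mrc1 (ENSMUSG00000026712, chr2:14229392-14332057) encodes the macrophage mannose receptor CD206. Its UMIs in immune nuclei were 10096 in WT, or 636 CPM (624 to 649), and 44077 in KO, or 1049 CPM (1039 to 1059), a log2 ratio of 0.72 (0.69 to 0.75). In unmixed nuclei the order was the other way, with 2153 CPM in WT, 1743 CPM in KO and a log2 ratio of -0.30 (-0.36 to -0.25). Thinned to 1000 UMIs, 44.0% of WT and 54.9% of KO immune nuclei held Mrc1, beside 4.76% and 10.8% of endothelial nuclei. Per 100 UMIs of the 8 macrophage markers, Mrc1 had 115.0 UMIs in WT and 114.7 in KO over all immune nuclei. That scale was added after the data had been seen, and on it the genotypes differed by -0.00 on the log2 scale (-0.03 to 0.03).

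Msr1 (ENSMUSG00000025044, chr8:39581685-39642673) encodes the class A scavenger receptor for modified lipoproteins, and Stab1 (ENSMUSG00000042286, chr14:31139013-31168641) encodes stabilin-1, which clears modified proteins and matrix fragments. Msr1 had 68.4 CPM (64.4 to 72.6) in WT and 114 CPM (111 to 117) in KO immune nuclei, a log2 ratio of 0.74. In unmixed nuclei it had 186 and 188 CPM, with a log2 ratio of 0.02 (-0.17 to 0.21), and the intervals overlapped. Stab1 had 207 CPM in WT and 311 CPM in KO, a log2 ratio of 0.59 (0.53 to 0.64), which was -0.48 (-0.58 to -0.38) in unmixed nuclei. In unmixed nuclei neither receptor was thus higher in KO beyond its counting interval.

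Lyve1 (ENSMUSG00000030787, chr7:110850607-110863239) encodes a receptor for hyaluronan, found on lymphatic vessels and on macrophages near vessels. It had 283 UMIs in WT immune nuclei, or 17.8 CPM, and 1277 in KO, or 30.4 CPM, a log2 ratio of 0.77 (0.58 to 0.96). The unmixed nuclei had 59.4 and 61.3 CPM, a log2 ratio of 0.04 (-0.29 to 0.39). Shares of nuclei went against the CPM, with 14.7% positive in WT and 10.5% in KO and, thinned, 3.41% (2.41% to 4.67%) and 2.86% (2.41% to 3.36%), whose intervals overlap, so no order of Lyve1 was read from them.

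The lectins Cd209f (ENSMUSG00000051906) and Cd209g (ENSMUSG00000079168) are mouse relatives of the human DC-SIGN receptor. Cd209f had 276 UMIs in WT and 286 in KO immune nuclei, or 17.4 CPM (15.4 to 19.6) and 6.81 CPM (6.04 to 7.64), a log2 ratio of -1.35 (-1.60 to -1.11). Cd209g had 337 and 196 UMIs, or 21.2 CPM (19.0 to 23.6) and 4.66 CPM (4.03 to 5.37), a log2 ratio of -2.19 (-2.45 to -1.93). In the unmixed nuclei these ratios were -2.37 and -3.13 (-3.51 to -2.76). Cd209g UMIs were gathered in few WT nuclei, the 10 richest holding 41.8% of them and the richest 52 UMIs. Since the genes are close copies, how reads that match both were counted is not known, and each value is uncertain to that extent.

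Of the 7 Cd209 genes measured, 6 had at least 50 UMIs in immune nuclei, and all 6 were lower by 2-fold in KO, with log2 ratios from -2.19 to -1.07. The 6 include Cd209f and Cd209g. Among all 15889 genes counted, 16.5% were lower by 2-fold. Cd209a had 40 UMIs in WT and 47 in KO, a log2 ratio of -1.17, and Cd209b 171 and 215 UMIs, a log2 ratio of -1.07. Cd209c, at -1.96, and Cd209d, at -1.38, lay between Cd209f and Cd209g. In the unmixed nuclei Cd209b was at -1.996, from 55 UMIs in WT and 136 in KO, Cd209c at -2.48 and Cd209d at -1.62. Cd209a was at -2.12 there, but its 11 UMIs in WT and 25 in KO lay under the minimum of 50 UMIs. Cd209e had 5 and 3 UMIs and was not counted.

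Fcna (ENSMUSG00000026938, chr2:25624666-25628030) encodes ficolin A, a soluble lectin that starts the complement cascade. It had 78 UMIs in WT immune nuclei, or 4.92 CPM (3.89 to 6.13), and 358 in KO, or 8.52 CPM (7.66 to 9.45), a log2 ratio of 0.79 (0.44 to 1.17). In unmixed nuclei that ratio was -0.27 (-0.89 to 0.40), an interval that holds 0. Vsig4 (ENSMUSG00000044206, chrX:96247203-96293438) encodes the complement receptor CRIg, which binds fragments of C3. Its 362 UMIs in WT and 335 in KO gave 22.8 CPM (20.5 to 25.3) and 7.97 CPM (7.14 to 8.87), a log2 ratio of -1.52 (-1.74 to -1.30), and -2.46 (-2.82 to -2.09) in unmixed nuclei. A Vsig4 UMI was found in 203 WT and 241 KO immune nuclei, and after thinning in 3.50% and 1.05%, beside 0.170% and 0.193% of endothelial nuclei.

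Retnla (ENSMUSG00000061100, chr16:48842551-48844461) encodes resistin-like alpha, which macrophages secrete. It had 35 UMIs in 22 WT immune nuclei, or 2.21 CPM (1.54 to 3.07), and 1432 UMIs in 414 KO immune nuclei, or 34.1 CPM (32.3 to 35.9). The log2 ratio was 3.95 (3.47 to 4.48), a 15.5-fold higher level in KO, and 3.32 (2.34 to 4.54) in unmixed nuclei. The WT level in immune nuclei was close to the 2.13 CPM of WT endothelial nuclei, which should lack the gene. Thinned to 1000 UMIs, 0.645% (0.260% to 1.32%) of WT and 2.50% (2.08% to 2.97%) of KO immune nuclei held Retnla, beside 0.213% and 0.676% of endothelial nuclei. In KO 107 immune nuclei had at least 3 Retnla UMIs, and the 10 richest nuclei held 25.1% of its UMIs, with 73 in 1 nucleus. Those 107 nuclei held 1059 of the 1432 Retnla UMIs, so few KO immune nuclei carried most of the Retnla counted.

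Under 15 alternatives of gate, filter, subset and scale, 4 of them chosen after the data had been seen, Cd163 stayed lower in KO with log2 ratios from -1.82 to -0.37, Cd209f from -2.37 to -0.75, Cd209g from -3.13 to -1.51 and Vsig4 from -2.46 to -0.98. Retnla stayed higher, from 3.16 to 8.48, where the last value comes from subtracting the endothelial level. The range was -0.31 to 1.29 for Mrc1 and -0.50 to 1.11 for Stab1. For Msr1 it was -0.05 to 1.31, for Lyve1 -0.02 to 1.44 and for Fcna -0.27 to 1.41. Over these alternatives 4 genes were thus lower in KO each time, Retnla was higher each time, and the other 5 took both signs, Msr1 and Lyve1 below 0 per nucleus alone.

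**Figure D2:**
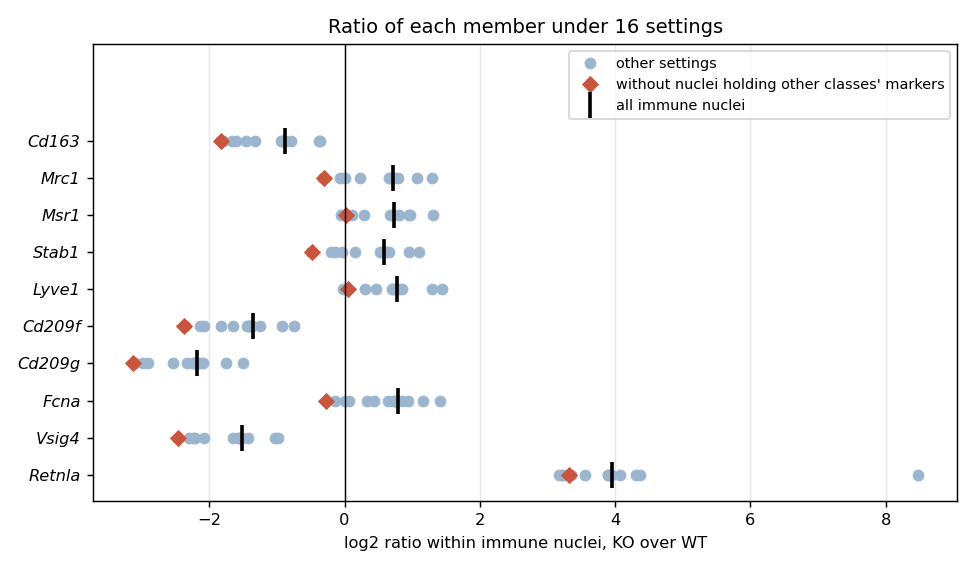
Log2 ratio of KO to WT within immune nuclei for each gene under 16 settings of gate, filter, subset and scale. The bar is the value over all immune nuclei, the diamond the value without nuclei holding other classes' markers and the circles the other settings. Points of Cd163, Cd209f, Cd209g and Vsig4 all lie left of 0 and those of Retnla all right of it.

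Most UMIs of these genes came from immune nuclei. In WT 70.0% to 86.9% of the UMIs of 9 genes lay there and 33.7% for Retnla, and in KO 81.8% to 96.3% for all 10. In a bulk measure of this tissue, more immune nuclei and more RNA of a gene per immune nucleus could not be told apart. The share of all UMIs held by immune nuclei was 19.99% for WT and 57.4% for KO.

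Over all nuclei, 6 genes were more than 2-fold higher in KO (Mrc1, Msr1, Stab1, Lyve1, Fcna and Retnla), none was 2-fold lower, and the median log2 ratio was 1.82. Of 18258 genes with at least 50 UMIs over all nuclei, 22.7% were higher and 18.1% lower by 2-fold, with a median of 0.12. WT levels of every class combined with the KO make-up of classes would give log2 ratios of 1.10 to 1.37 for 9 genes and 0.42 for Retnla. Mrc1 was 149 CPM in WT and 632 CPM in KO, a log2 ratio of 2.08 (2.05 to 2.11), beside 1.34 from the make-up alone. Cd163 was 58.6 and 80.6 CPM, a log2 ratio of 0.46 (0.41 to 0.52), beside 1.32 from the make-up alone, so its all-nuclei level was higher in KO although its level within immune nuclei was lower. Cd209f, at -0.03 (-0.26 to 0.19), and Vsig4, at -0.14 (-0.35 to 0.07), had all-nuclei ratios whose intervals hold 0. Cd209g alone was lower over all nuclei with an interval below 0, at -0.80 (-1.05 to -0.55). For Retnla the measured 4.19 (3.90 to 4.49) was far above its 0.42 from the make-up.

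**Figure D3:**
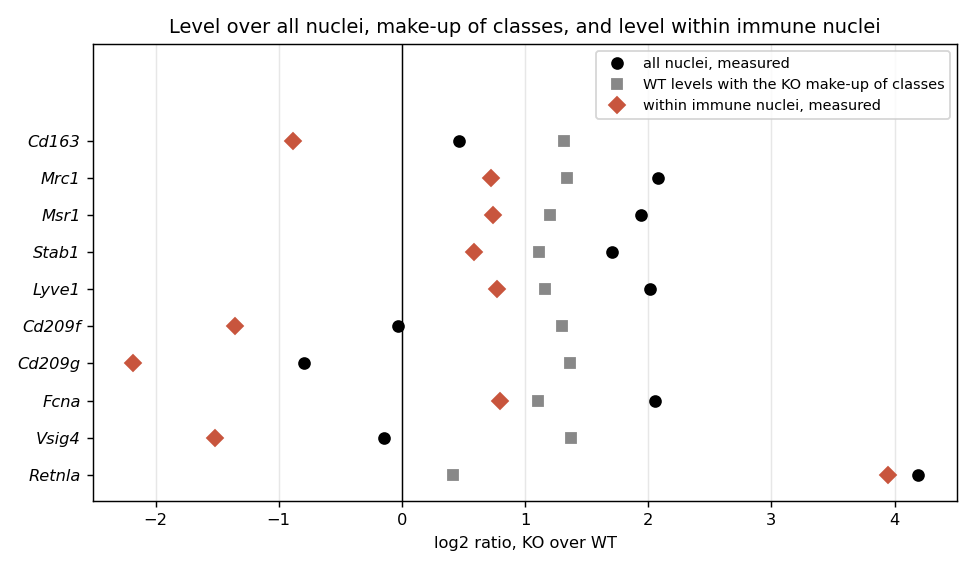
Log2 ratio of KO to WT for each gene over all nuclei (circles), from WT levels with the KO make-up of classes (squares) and within immune nuclei (diamonds). The squares lie at 1.10 to 1.37 for 9 genes, while the circles run from -0.80 for Cd209g to 4.19 for Retnla.

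How the make-up and the level share a ratio depended on the nuclei counted. Without the immune nuclei that held other classes' markers, immune nuclei were 2.91% of WT and 31.8% of KO nuclei, and the make-up alone gave a log2 ratio of 3.03 for the 10 genes summed, against 1.28 with all nuclei and 0.77 with no filter on nuclei.

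Outside immune nuclei the levels were low, with some exceptions. Stab1 was found in lymphatic endothelial nuclei at 443 CPM in WT and 384 CPM in KO, from 27 and 25 UMIs in 21 and 22 nuclei. Lyve1, a known marker of lymphatic vessels, had 17 and 31 UMIs there, or 279 and 477 CPM, and the log2 ratio of 0.77 (-0.13 to 1.72) had an interval that holds 0. Mrc1 had 8 and 15 UMIs in the same nuclei, or 131 and 231 CPM, a log2 ratio of 0.81 (-0.52 to 2.26). In other endothelial nuclei Stab1 had 72.9 CPM in WT and 107 CPM in KO, a log2 ratio of 0.55 (0.33 to 0.76). Mrc1 was higher in KO in adipocyte nuclei, at 15.2 and 40.1 CPM, and in endothelial nuclei, at 46.2 and 113 CPM. In the same 2 classes Cd163 was at 6.93 and 5.53 CPM and at 19.9 and 10.9 CPM. Mrc1 had 10096 UMIs in WT and 44077 in KO immune nuclei, and the part of free RNA in these values was not tested.

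**Figure D4:**
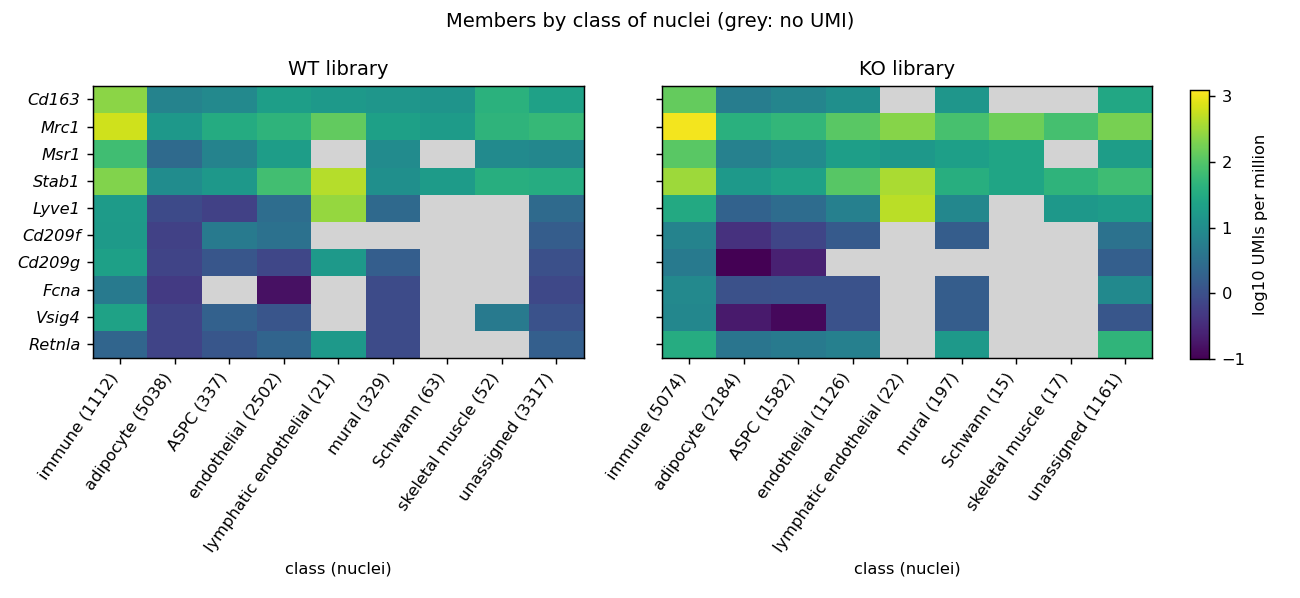
Level of each gene by class of nuclei in the WT and KO libraries, as log10 of CPM, with the number of nuclei in parentheses and grey where no UMI was found. The immune column is the brightest for most genes, and Lyve1, Stab1 and Mrc1 are also bright in the few lymphatic endothelial nuclei.

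Nuclei that fitted no class numbered 3317 in WT and 1161 in KO, with medians of 1159 and 1119 UMIs. Retnla had 48.1 CPM there in KO, from 191 UMIs in 63 nuclei, and 1.75 CPM in WT, from 23 UMIs. Of those 191 UMIs, 102 lay in 10 nuclei. Lyve1 had 18.6 CPM in these KO nuclei and 2.59 CPM in WT, and Fcna 8.81 and 0.763 CPM. Mrc1 had 181 CPM in them in KO, from 719 UMIs, and 56.2 CPM in WT, from 737 UMIs, a log2 ratio of 1.69 (1.54 to 1.84). With at least 3 Retnla UMIs in 21 of these KO nuclei, some nuclei rich in Retnla lay outside the immune class.

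Among immune nuclei, those with at least 3 UMIs of Gpnmb, Atp6v0d2, Mmp12, Trem2, Acp5 and Ctsk, genes known from macrophages that handle lipid and from osteoclasts, were 189 in WT (17.0%) and 2084 in KO (41.1%). Of these, 16 in WT and 299 in KO had fewer than 2 UMIs of the 8 macrophage markers. All 10 genes had lower CPM in this Gpnmb-type subset than in nuclei of the macrophage subset that were not of the Gpnmb type, in both libraries. Cd163 was at 109 CPM in it and 349 CPM outside it in WT, and at 79.5 and 268 CPM in KO. Mrc1 was at 391 and 826 CPM in WT and at 779 and 1740 CPM in KO. Lyve1 showed a wider gap, with 4.12 CPM in it and 27.6 CPM outside it in WT, and 10.99 and 75.1 CPM in KO. The subset's nuclei were deeper, with medians of 13560 against 7327 UMIs in WT and 7846 against 4488.5 in KO. Per nucleus the order was not the same for every gene. Msr1 had 335 UMIs in the 189 Gpnmb-type WT nuclei and 709 in the 672 outside it. In KO it had 2715 UMIs in 2084 nuclei and 1936 in 2082. Lyve1 kept its order, with 23 and 254 UMIs in WT and 283 and 960 in KO. The part of depth in these levels was not tested.

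Within each of these subsets the direction of every gene was that of all immune nuclei, although in the Gpnmb-type subset the interval of Cd209f, -0.46 (-1.15 to 0.28), held 0 and Retnla had 1 UMI in WT. In the macrophage subset without the Gpnmb-type nuclei, Cd163 had a log2 ratio of -0.38 (-0.45 to -0.31), Cd209g of -1.51 (-1.79 to -1.22) and Vsig4 of -1.03 (-1.32 to -0.76). Lyve1 was at 1.44 (1.24 to 1.65), Mrc1 at 1.07 (1.04 to 1.11) and Retnla at 4.30 (3.78 to 4.88). WT levels of the Gpnmb-type, the other macrophage and the remaining immune nuclei with the KO make-up of the 3 would give -0.46 for Cd163, beside the measured -0.88, and -0.65 for Lyve1, beside 0.77. For Retnla the make-up alone would give -0.65, beside 3.95.

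**Figure D5:**
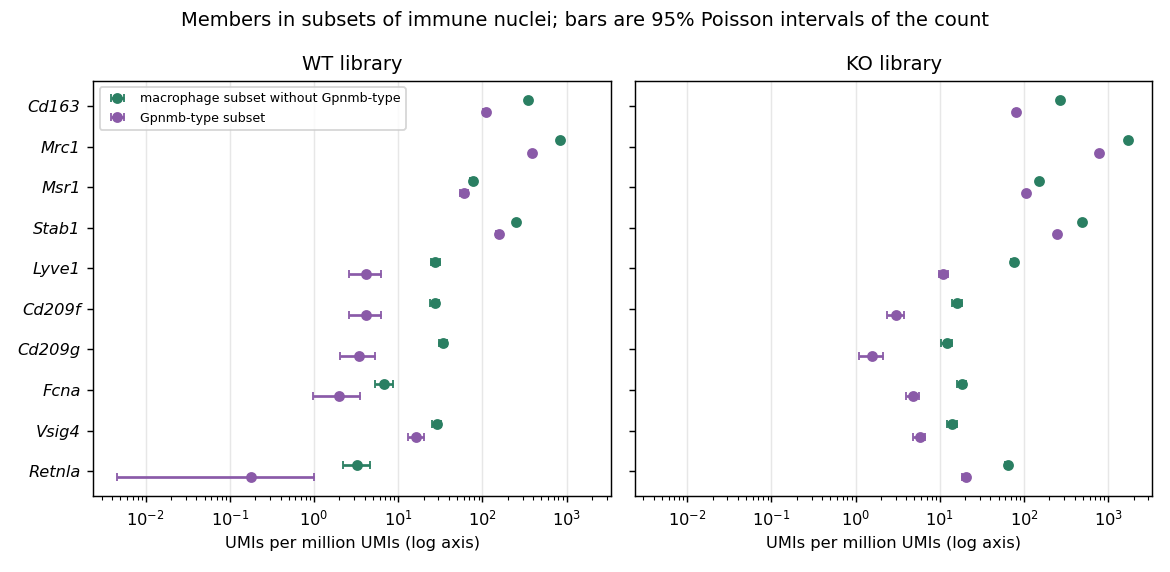
Level in CPM (log axis) of each gene in the macrophage subset without Gpnmb-type nuclei and in the Gpnmb-type subset, for the WT (left) and KO (right) libraries. Bars are 95% Poisson intervals of the count. Every gene lies lower in the Gpnmb-type subset in both libraries, with wide intervals for Retnla in WT, where the subset held few UMIs of it.

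Some of the 10 genes were found in the same nuclei. Of the 94 WT immune nuclei with Cd209g, 68.1% also held Cd209f, against 4.32% of those without it, and in KO these shares were 48.8% of 125 nuclei and 2.04%. Lyve1 was found in 47 of the 94 WT nuclei with Cd209g and in 11.4% of those without. In KO 32.9% of the 414 nuclei with Retnla held Lyve1, against 8.52% of the others, 15.7% against 3.09% held Fcna, and 37.2% against 20.3% held Cd163. Nuclei positive for a gene were deeper, with medians of 7049 UMIs with Retnla and 5022.5 without, and the part of depth in these shares was not tested.

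The 107 KO immune nuclei with at least 3 Retnla UMIs had higher levels of several other members than the 4660 with none. Cd163 was at 526 CPM (484 to 570) against 118 CPM (115 to 122), Lyve1 at 375 against 19.0 CPM, Fcna at 125 against 4.75 CPM and Cd209f at 102 against 3.92 CPM. Mrc1 differed less, at 1562 against 1044 CPM. F13a1, the gene of a coagulation factor subunit made by tissue macrophages, was at 3573 against 1095 CPM, while Gpnmb was at 106 against 309 CPM. Genes of the monocyte list were also higher, Fn1 at 395 against 118 CPM and Ccr2 at 85.5 (69.1 to 104.6) against 65.9 CPM (63.3 to 68.5). The Retnla-rich nuclei were deeper, with a median of 7438 against 5022.5 UMIs, and the part of depth was not tested. Adgre1, one of the gate genes, was at 626 CPM in both sets. Only 28.0% of the Retnla-rich nuclei were of the Gpnmb-type subset, against 41.4% of the nuclei without Retnla. These nuclei were chosen by their Retnla counts, so the values are descriptions.

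The 5 genes most like the 10 in sum, by the lower of the Pearson correlations across WT and across KO immune nuclei among 8559 genes, were F13a1, Slc9a9, Wwp1, Frmd4b and Psd3. For F13a1 the correlation was 0.70 in WT and 0.59 in KO, and for Psd3 0.57 and 0.55. Nuclei of 1 library share its depth and its free RNA, so these are descriptions. In immune nuclei, F13a1 had 858 CPM in WT and 1188 CPM in KO, a log2 ratio of 0.47, and Frmd4b 824 and 1557 CPM, a log2 ratio of 0.92.

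Other scavenger receptors were read beside the 10 genes. This list and the gene lists below were read over all immune nuclei, mixed ones included, and not in the unmixed ones. Summed ASPC markers had a log2 ratio of 1.20 in the same nuclei. The part of other cell types in the ratios of these lists was not tested. Of 19 other scavenger receptors with at least 50 UMIs, 3 were lower and 6 higher by 2-fold in KO over all immune nuclei, with a median log2 ratio of 0.57. Of all 15889 genes counted, 16.5% were lower and 13.5% higher by 2-fold, with a median of 0.06. These shares stand beside the count of this list and of every list below, and a count near them is not a result about its list. Cd36, the fatty acid transporter that adipocytes also express, had a ratio of 0.16, Mertk, a receptor for dying cells, 0.56, and Lrp1 1.36. Cd5l, a secreted scavenger protein of tissue macrophages, had 162 UMIs in WT and 24 in KO, a log2 ratio of -4.16 (-4.84 to -3.54). Marco, a class A scavenger receptor, had 37 and 2 UMIs and lay under the count minimum. Axl was at 2.15 and Stab2, the relative of Stab1, at 2.97.

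Of 22 other lectins counted, 5 were lower and 6 higher, with a median of 0.59, beside 16.5% lower and 13.5% higher of all genes. Lgals3, galectin-3, was at 1.92, Mrc2, the relative of Mrc1, at 1.62 and Clec10a, a galactose-binding lectin of macrophages, at 0.25. Of the 5 lower ones 4 were Cd209 genes and the other was Clec4e. Clec4b1, at 3.24, and Clec12a, at 2.17, were the furthest higher.

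Genes of resident macrophages numbered 14, of which 1 was lower (Cbr2, at -1.21), 3 were higher (C1qa, C1qc and Folr2) and 10 lay between, with a median of 0.54. Maf was at 0.50 and Igf1 at 0.98. Timd4, a receptor of long-lived resident macrophages, was at 0.39 (0.07 to 0.73). Of 12 genes of haem and iron handling, which follow on haemoglobin uptake by Cd163, 2 were lower (Tfrc at -1.98 and Fth1 at -1.12), 1 was higher (Blvra at 1.23) and 9 lay between. Hmox1, which breaks down haem, was at -0.25, Nfe2l2 at 0.67, Ftl1 at 0.33 and Bach1 at 0.42.

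Retnla was set beside other genes of alternative activation. Of 9 counted, 2 were lower past 2-fold, 1 was higher (Ccl24, a chemokine, at 1.18) and 6 lay between, with a median of -0.38. Arg1 had 124 UMIs in WT and 53 in KO, a log2 ratio of -2.63 (-3.12 to -2.16), Irf4 -2.41, Mgl2 0.90, Pdcd1lg2 0.09, Klf4 -0.38 and Stat6 itself 0.31. Chil3 had 10 and 0 UMIs and was not counted. Of the relatives of Retnla, Retn, which adipocytes make, was at -0.45, Retnlg had 16 and 1 UMIs and Retnlb none.

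Lipid-associated macrophage genes had the highest median of these lists, 0.98 over 16 genes, with 2 lower and 8 higher. Plin2 was at 0.94. Mmp12 was at 5.24, Itgax at 3.94, Atp6v0d2 at 3.55 and Gpnmb at 2.12, while Spp1 was at -2.80 and Lpl, which adipocytes express, at -1.31. Of 6 monocyte genes counted, 3 were lower and 1 higher, with Fn1 at 1.71, Ccr2 at 0.83 and Vcan at 0.25. S100a9, a neutrophil and monocyte gene, had 152 UMIs in WT and 1 in KO. Shares of nuclei with at least 3 UMIs of a lymphoid list, at 9.89% and 6.05% of immune nuclei, also differed between libraries. So did those with at least 2 UMIs of a dendritic list, at 321 of 1112 and 812 of 5074 immune nuclei. The dendritic list summed to 110 CPM inside the immune class and 109 CPM outside it in WT, and to 132 and 143 CPM in KO. This dendritic subset is thus a range on UMIs and not a set of dendritic cells. Its nuclei were deep, with medians of 19505 UMIs in WT and 12339.5 in KO. Without those 2 subsets and proliferating nuclei, Cd163 was at -1.46, Mrc1 at 0.01, Stab1 at -0.03 and Retnla at 3.21, and the part of these subsets in the ratios was otherwise not tested.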

How the data were processed

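The authors aligned reads of 10x 3' libraries of nuclei to GRCm38 with STAR and deposited raw UMI counts per gene and barcode, 1 matrix per library, without normalization. The file headers and processing notes name Cell Ranger 5.0.0, the notes also Seurat 3.1.1, and the methods an earlier Cell Ranger. Whether intronic reads were counted is not given in the sources used here.

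A barcode was used if it had 200 genes or more, no more than 10% mitochondrial UMIs, and log10 totals of UMIs and of genes that each lay no further than 3 scaled median absolute deviations from the median over its library. Immune nuclei had at least 3 UMIs of Dock2, Ptprc and Adgre1 in sum. Other nuclei took the class whose marker list had at least 3 UMIs and at least 2 times the next list. No clustering was made and no doublet program was run. UMIs were summed per class and library and divided by the class total. Ratios carry the exact conditional binomial interval. Genes were counted past 2-fold with at least 50 UMIs over both libraries. Nuclei were thinned to 1000 UMIs without replacement (seed 1). The scripts were tested on simulated data.

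Named genes were the 10 members, the 3 genes of each list with most UMIs, the 5 most like the members, the gate genes and Srsf1. Further genes of the lists were named after their values were seen, as were Cd209a to Cd209e and the genes in Retnla-rich nuclei. A gene of the marker lists entered their sums and is not reported here. The members and lists were chosen with earlier results of these data known. Promoters were taken from RefSeq (GRCm38.p6), and places of genes from GENCODE release 21. Python 3.11.15, numpy 2.4.6, scipy 1.17.1, pandas 2.3.3 and matplotlib 3.10.9 were used.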

Additional observations from a re-analysis of the deposited data

Results flagged for a closer look

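Cd163 was lower in KO within immune nuclei, at a log2 ratio of -0.88, and higher in KO among nuclei that fitted no class, at 0.41 (0.08 to 0.72), from 289 UMIs in WT and 116 in KO. It is listed because the 2 intervals lie on opposite sides of 0. The difference between the 2 ratios was not tested, since each comes from 1 library per genotype. At 22.0 CPM in WT and 29.2 CPM in KO, Cd163 was far below its level in immune nuclei in both.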

How the results depend on the processing

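No paired analysis was possible because each genotype had 1 library and no replicate numbers. With 1 library per genotype, spread between animals is unknown and intervals cover counting error only. Depth limits Fcna, Cd209f, Cd209g and WT Retnla most. Ratios are KO over WT on the log2 scale, and the cause of each shift was not tested.

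Over all immune nuclei, 2628 genes were lower and 2149 higher past 2-fold. With no filter on nuclei, the median of the 10 genes was 1.13, 1 gene was lower and 6 higher past 2-fold, and the make-up alone gave 0.77 for their sum. The share over all genes is not given beside these counts. With at least 2 gate UMIs, immune nuclei were 11.002% of WT and 51.5% of KO nuclei, any of the 10 genes was found in 78.4% and 83.7% of them, and the make-up gave 1.30. With at least 5, these were 7.20% and 39.7%, 88.2% and 92.0%, and 1.26. With Dock2 and Ptprc alone, the class was 8.03% and 42.2%.

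In unmixed nuclei, Mrc1 was at -0.30, Stab1 at -0.48, Fcna at -0.27 and the median at -0.39. There the make-up gave 3.03, immune nuclei were 2.91% and 31.8%, and 1319 genes were lower and 635 higher. The mean over nuclei gave a median of 0.19. Without the lymphoid, dendritic and proliferation subsets, each a range on UMIs of a marker list, Stab1 was at -0.032 and the median at -0.012. Thinned to 1000 UMIs, any gene was found in 59.7% and 67.2%, and thinned to 2000 in 72.3% and 80.3%. With a minimum of 200 UMIs, 1643 genes were lower, and with 1 UMI 5850 were lower and 3806 higher.

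The following were chosen after seeing the data. Per macrophage-marker UMI, Mrc1 was at -0.0037, Stab1 at -0.14 and the median at -0.071. Per nucleus, Mrc1 was at -0.064, Msr1 at -0.047, Stab1 at -0.20, Lyve1 at -0.016 and the median at -0.13. In unmixed nuclei of the macrophage subset, Mrc1 was at -0.31, Stab1 at -0.50, Fcna at -0.15 and the median at -0.41. In the macrophage subset without Gpnmb-type nuclei the median was 0.96 and 4 genes were higher past 2-fold. No share over all genes is given beside that count. With immune nuclei split in 3, the make-up gave -0.020 for Retnla and 0.97 for the sum.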

Other observations

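Thinned to 1000 UMIs, the 10 genes summed were found in 59.7% of WT and 67.2% of KO immune nuclei. Nuclei with 6 or more of these UMIs were 13.8% in WT and 11.4% in KO, and nuclei with exactly 1 were 16.6% and 20.1%. Positive nuclei held 3.84 UMIs of the 10 genes on average in WT and 3.31 in KO.

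Nuclei just outside the immune class, with 2 UMIs of the gate genes, had 66.2 CPM of Cd163 in WT and 17.5 CPM in KO. Mrc1 was at 178 and 118 CPM in the same nuclei, and Retnla at 2.01 and 17.5 CPM. With no UMI of the gate genes, Cd163 was at 9.45 and 7.25 CPM, Mrc1 at 21.5 and 57.6 CPM and Retnla at 1.03 and 8.66 CPM.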
